A study of Mus musculus with 17 samples.

Results

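Metallothioneins and zinc transporters are described here through 6 genes of mouse liver: the metallothioneins Mt1 and Mt2, the zinc importer Slc39a14, the zinc exporter Slc30a1, the manganese exporter Slc30a10 and the metal-sensing transcription factor Mtf1. They were chosen by name, as the rows of the expression table whose Ensembl identifiers carry those symbols, and they make up 6 of the 46073 genes in the table. Levels are in FPKM, in which fragment numbers are divided by the length of the transcript and the size of the library. The 17 libraries came from livers of male C57BL/6 mice, an inbred strain, taken 24 h after a dose of acetaminophen (abbreviated APAP) or of saline. At high dose this drug kills hepatocytes around the central vein. The study varied Nampt, which recycles nicotinamide into NAD, and its title puts the question of protection by that enzyme.

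Acetaminophen at 200 mg/kg was given to 2 mice labelled Nampt OE (called OE), 3 labelled Nampt +/- (Het) and 3 labelled Nampt +/+ (WT). Saline was given to 2 OE, 2 Het and 3 WT mice. A single OE mouse received 300 mg/kg and a single WT mouse received saline labelled IG, and both stand apart from the 15 libraries of the comparisons. The mice were 11 weeks old, except OE APAP 2, WT saline 1, WT saline 2 and the 300 mg/kg mouse, which were 12. The labels do not spell out OE, and the promoter behind it and the cells that carry it are not given in the sources used here. Replicate numbers follow the order of deposit and only name a library. No label says that each library is a different animal, and each p-value below covers the spread of these samples alone.

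Metallothioneins are small, cysteine-rich proteins that bind zinc, copper and cadmium and take up reactive oxygen species and electrophiles. Mtf1 senses free zinc, binds metal response elements in DNA and is needed for metal induction of Mt1, Mt2 and Slc30a1, whose product carries zinc out of the cell. In the acute phase of inflammation, interleukin-6 and glucocorticoids also raise the hepatic metallothioneins, and interleukin-6 raises Slc39a14, which brings zinc, iron and manganese into hepatocytes while plasma zinc falls.

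Libraries differed in ways that touch these genes. Livers of 1 of 2 OE APAP, 1 of 3 Het APAP, 0 of 3 WT APAP, 1 of 2 OE saline, 2 of 2 Het saline and 2 of 3 WT saline libraries had been perfused, and perfusion followed the sequencing lane. Every fitted difference below is adjusted for perfusion. WT saline shared no lane with another of the main groups, so in the WT response and in saline comparisons against WT, lane and group cannot be told apart. No read counts were used here, but the smallest steps between low values gave an estimate of depth, in which 1 fragment per kb of transcript was worth 0.0184 FPKM in Het APAP 2 and 0.204 FPKM in the 300 mg/kg library. OE APAP 1 was the next shallowest, at 0.153 FPKM. Nampt itself spanned 18.5 to 36.0 FPKM in OE APAP, 11.3 to 15.4 FPKM in Het APAP and 10.9 to 16.7 FPKM in WT APAP. In saline it spanned 22.4 to 27.2 FPKM in OE, 23.0 to 26.0 FPKM in Het and 15.3 to 17.98 FPKM in WT. Its RNA was therefore not lower in the libraries labelled Het than in those labelled WT, and the genotype names below are labels. Among the saline libraries, OE saline 1 stood apart: its summed pericentral markers, genes of the hepatocytes around the central vein, came to 1273 FPKM, against 3059 to 5016 FPKM in the other saline libraries of the main groups and 1427 FPKM in OE APAP 1, the highest of the APAP libraries.

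Mt1 and Mt2 rose after APAP more than the other 4 genes. The medians over the genotypes were 60.2-fold higher for Mt1 and 288-fold higher for Mt2 in the 8 APAP libraries than in the 7 saline libraries. Slc39a14 rose by a smaller step, with a ratio of medians of 2.07. Slc30a1, Slc30a10 and Mtf1 did not pass the test. Thus 3 of the 6 genes passed in the response averaged over the genotypes, all upward, by limma on log2(FPKM + 1) with Benjamini-Hochberg adjustment at 0.05. Over all 11101 genes tested, 23.1% passed in that comparison, 9.79% upward and 13.3% downward, and the median difference of all genes was -0.02.

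Mt1 (ENSMUSG00000031765) lies on chromosome 8 from 94179082 to 94180327, plus strand of GRCm38, and Mt2 (ENSMUSG00000031762) lies beside it from 94172664 to 94173568 on the same strand. The DNA in front of these genes and of Slc30a1 is shown because all 3 are textbook targets of Mtf1. Of these, only Mt1 and Mt2 passed in the averaged response. Each line gives 250 bases before to 50 bases after the start of the gene's RefSeq entry (GRCm38.p6, plus strand), 5′ to 3′, with matches to the core of the metal response element in capitals. The core was searched as TGCACNC or TGCGCNC on both strands.
Mt1, chr8:94178839-94179138: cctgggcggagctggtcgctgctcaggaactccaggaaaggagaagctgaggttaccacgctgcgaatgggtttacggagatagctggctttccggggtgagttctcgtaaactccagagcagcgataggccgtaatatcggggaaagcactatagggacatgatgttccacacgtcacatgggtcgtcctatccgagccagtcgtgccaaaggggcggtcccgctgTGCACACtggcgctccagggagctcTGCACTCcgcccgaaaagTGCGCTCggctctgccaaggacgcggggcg
Mt2, chr8:94172368-94172667: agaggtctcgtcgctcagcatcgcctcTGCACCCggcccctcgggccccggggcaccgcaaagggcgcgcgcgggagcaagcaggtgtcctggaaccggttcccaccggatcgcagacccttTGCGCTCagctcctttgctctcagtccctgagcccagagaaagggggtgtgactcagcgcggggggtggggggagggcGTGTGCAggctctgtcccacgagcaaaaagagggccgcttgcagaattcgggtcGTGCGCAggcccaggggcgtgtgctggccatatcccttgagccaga
Slc30a1, chr1:191906531-191906830: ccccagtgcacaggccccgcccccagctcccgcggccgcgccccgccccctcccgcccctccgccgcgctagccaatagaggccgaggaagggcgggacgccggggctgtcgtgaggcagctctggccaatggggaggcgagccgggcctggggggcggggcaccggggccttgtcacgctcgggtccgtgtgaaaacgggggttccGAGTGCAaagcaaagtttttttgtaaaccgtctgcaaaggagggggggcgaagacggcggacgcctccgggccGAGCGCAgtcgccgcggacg
Counted from the first base of the entry, the Mt1 window held 3 matches that began at -23, 3 and 21. The Mt2 window held 4, at -223, -128, -50 and 5, and the Slc30a1 window held 2, at -43 and 31. Of 32851 windows of 300 bases, 1.97% held at least 3 matches, 0.517% held at least 4 and 7.11% held at least 2. Slc30a10 had 3 matches, of which those at -233 and -232 overlap, and Mtf1 had 0. An antioxidant response element (TGACNNNGC, either strand) was matched once in the windows of Mt2, at -79, and of Slc30a1, at -82, and in 12.4% of all windows. A STAT site (TTCNNNGAA) was matched in 8.3% of all windows and a glucocorticoid response element (AGAACA, any 3 bases, TGTTCT) in 0.00913%. Neither was matched in the 5 windows of Mt1, Mt2, Slc30a1, Slc30a10 and Mtf1. No window was available for Slc39a14, so it was not searched. The gene annotation lists 3 transcripts of Mt1 and 2 of Mt2, and a match here is a run of letters in 1 window, not a bound site. Bases outside each window were not searched, so a missing match holds for that window only. Another start would give other counts. The Mt2 window ends at 94172667, just past the gene start of 94172664 given above. Its match at 5 therefore lies before that gene start.

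Mt1 stood at 131 and 1757 FPKM in OE APAP 1 and 2, at 1525, 2357 and 1179 FPKM in Het APAP 1 to 3, and at 183, 226 and 538 FPKM in WT APAP 1 to 3. In saline it stood at 106 and 26.5 FPKM in OE, at 16.3 and 14.3 FPKM in Het, and at 6.75, 7.27 and 10.7 FPKM in WT. All 8 APAP libraries lay above all 7 saline libraries, though OE APAP 1 was close to OE saline 1. The share of all genes whose groups do not overlap was not counted, here or in later comparisons. The averaged difference was 5.37 ± 0.56 on the log2 scale (SE; adjusted p = 4.87e-04, limma).

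Mt2 stood at 10.3 and 1425 FPKM in OE APAP, at 701, 1170.1 and 761 FPKM in Het APAP, and at 78.1, 86.3 and 338 FPKM in WT APAP. In saline it stood at 36.1 and 1.81 FPKM in OE, at 3.91 and 1.54 FPKM in Het, and at 1.58, 3.07 and 1.09 FPKM in WT. The groups overlapped in 1 place: OE APAP 1 lay below OE saline 1, and the other 7 APAP libraries lay above every saline library. The averaged difference of Mt2 was 6.75 ± 0.97 (SE, log2; adjusted p = 0.00223, limma). Its saline levels rested on few molecules, an estimated 7.99 to 324 fragments per library, and the OE APAP 1 level on an estimated 26.6.

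**Figure D1:**
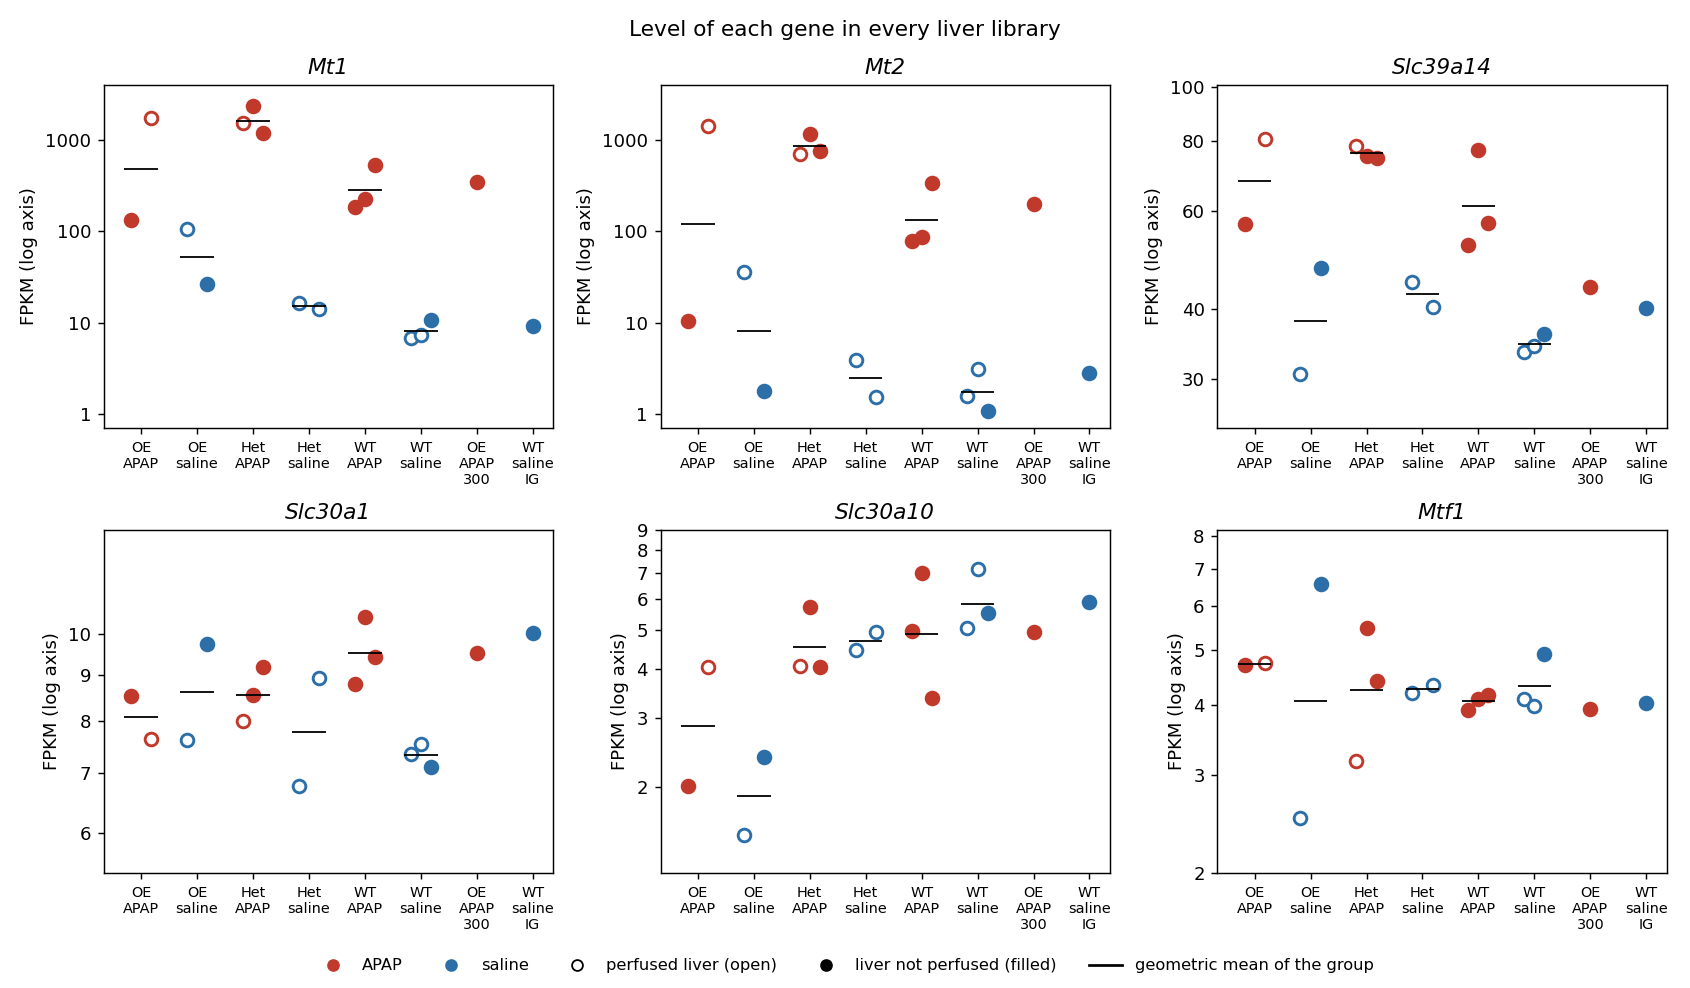
FPKM of the 6 genes in every library, on log axes, grouped by genotype and treatment (red, APAP; blue, saline; open points, perfused livers; bars, geometric means of the groups). Mt1 and Mt2 are high in all Het and WT APAP libraries and far apart in OE APAP, where the pair of libraries stands at 131 and 1757 FPKM for Mt1, while Slc30a1, Slc30a10 and Mtf1 stay below 11 FPKM throughout.

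As a share of a library's summed FPKM, Mt1 and Mt2 together made up 0.0221% to 0.547% after APAP and 0.0014% to 0.0179% after saline. In Het APAP 2, Mt1 was the 42nd most abundant gene and Mt2 the 79th, against ranks of 5406 and 9671 in WT saline 1. Liver is a mixed tissue, and in such bulk samples more RNA per cell and more cells of a type that holds the RNA cannot be told apart.

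By genotype, the Het response was 7.32 ± 0.95 for Mt1 (adjusted p = 0.00152) and 9.49 ± 1.63 for Mt2 (adjusted p = 0.00532), both SE on the log2 scale by limma. Together with Slc39a14, 3 of the 6 genes passed upward in Het, where 22.1% of all genes passed, 9.04% upward and 13.1% downward. The WT response was 5.64 ± 0.87 for Mt1 (adjusted p = 0.0100) and 7.13 ± 1.49 for Mt2 (adjusted p = 0.0302), so 2 of the 6 passed, against 5.5% of all genes and 1.95% upward. The call for Mt2 in WT was lost in 11 of 26 alternative settings. With only the WT groups in the limma fit, Mt1 reached 4.59 with an adjusted p of 0.0650 and Mt2 5.99 with an adjusted p of 0.0983. The main fit held 1 perfusion term shared by all groups, so the OE libraries also enter these Het and WT sizes. Unadjusted, mean log2(FPKM + 1) of Mt1 was 10.66 in Het APAP and 4.02 in Het saline, and of Mt2 9.74 and 1.82. In WT it was 8.14 and 3.18 for Mt1, and 7.05 and 1.49 for Mt2. With only the Het groups in the fit, the response was 6.55 for Mt1 and 7.63 for Mt2.

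In OE the fitted response was 3.15 ± 0.94 for Mt1 (adjusted p = 0.932) and 3.64 ± 1.61 for Mt2 (adjusted p = 1), and 0 of the 6 genes passed there by limma, as did 0% of all genes. At an unadjusted p under 0.05, 2 of the 6 (Mt1 and Slc39a14) and 4.8% of all genes were below the threshold in OE. The 95% confidence intervals were 1.06 to 5.25 for Mt1 and -0.03 to 7.31 for Mt2. The OE values depended on the library. In lane L008, OE APAP 2 exceeded OE saline 1 by 4.04 for Mt1 and 5.26 for Mt2, and in lane L004, OE APAP 1 exceeded OE saline 2 by 2.27 and 2.01, all on the log2 scale and each from 1 library against 1. Without OE APAP 2 the fitted OE response was 1.43 for Mt1 and 0.70 for Mt2, and without OE APAP 1 it was 4.88 and 6.58.

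The Het response could be compared within lane L008 as well, where Het APAP 1 exceeded the mean of both Het saline libraries by 6.55 for Mt1 and 7.63 for Mt2 (log2). In lane L004, the OE liver given 300 mg/kg exceeded OE saline 2 by 3.67 for Mt1 and 6.17 for Mt2, with 348 and 201 FPKM in the 300 mg/kg library.

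**Figure D2:**
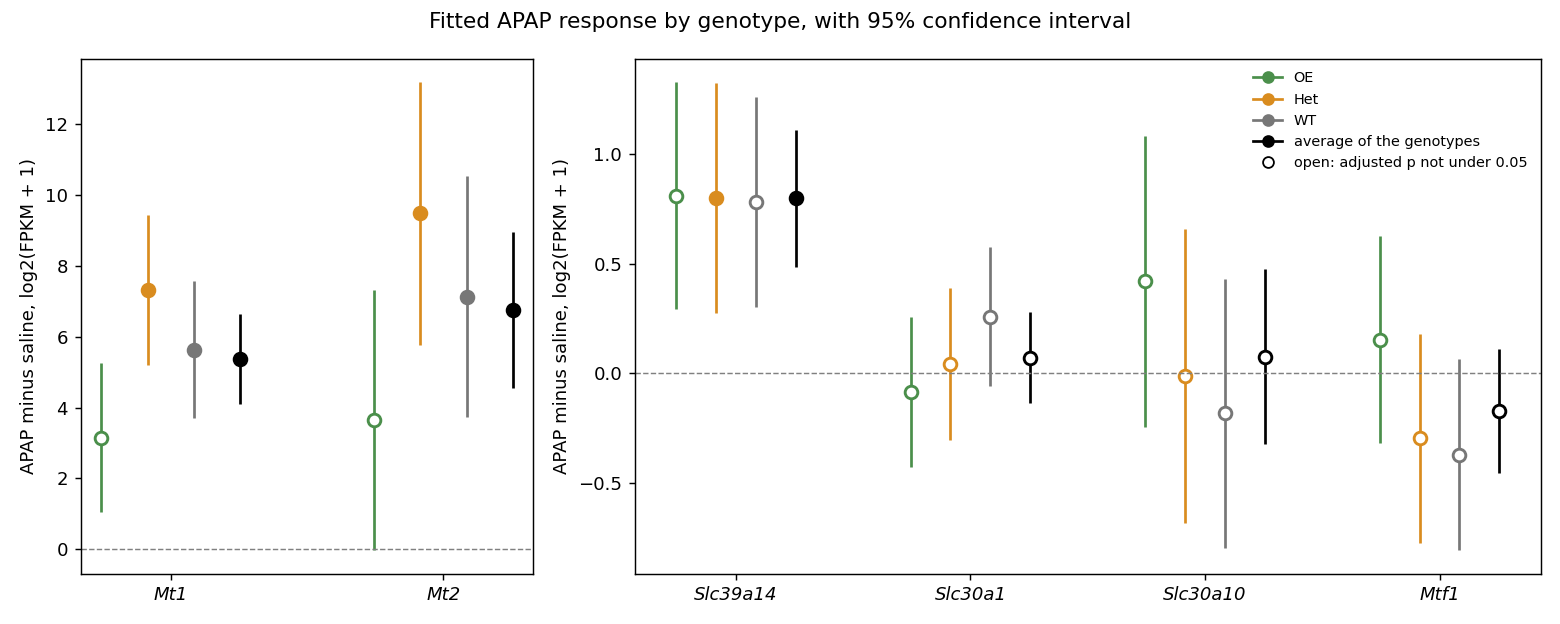
Fitted APAP minus saline difference of each gene on the log2(FPKM + 1) scale in OE, Het and WT and averaged over them, with 95% confidence intervals (open points did not pass; the panels have different scales). Mt1 and Mt2 lie between 3.15 and 9.49, Slc39a14 lies at 0.78 to 0.81 in the 3 genotypes, and the intervals of the other 3 genes include 0.

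Mt2 was the scarcer of the pair per length of transcript in every library. The ratio of Mt1 to Mt2 was 12.7 and 1.23 in OE APAP, 2.18, 2.01 and 1.55 in Het APAP, and 2.34, 2.62 and 1.59 in WT APAP. In saline it was 2.93 and 14.7 in OE, 4.17 and 9.23 in Het, and 4.26, 2.36 and 9.85 in WT. Apart from OE APAP 1, the APAP libraries lay at 2.62 or below and 6 of the 7 saline libraries above that, the exception being WT saline 2. The mean log2 ratio of FPKM + 1 was 1.23 ± 0.998 in APAP and 2.04 ± 0.78 in saline (SD, n = 8 and 7; exact two-sided permutation p = 0.108 for the difference of -0.81 over 6435 splits). This test, added after the data were seen, takes no account of genotype or perfusion. The same exact permutation test gave -1.14 with p = 0.00291 without OE APAP 1, and -1.17 with p = 0.0446 with a pseudocount of 0.1. Leaving out each of the other libraries in turn kept the exact p above 0.05, up to 0.220 without OE saline 2, so the ratio was not shown to differ. Among perfused livers the APAP ratios were 1.23 and 2.18 and the saline ratios 2.36 to 9.23, without overlap. Among livers not perfused the APAP ratios were 1.55 to 12.7 and the saline ratios 9.85 and 14.7, with overlap.

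**Figure D3:**
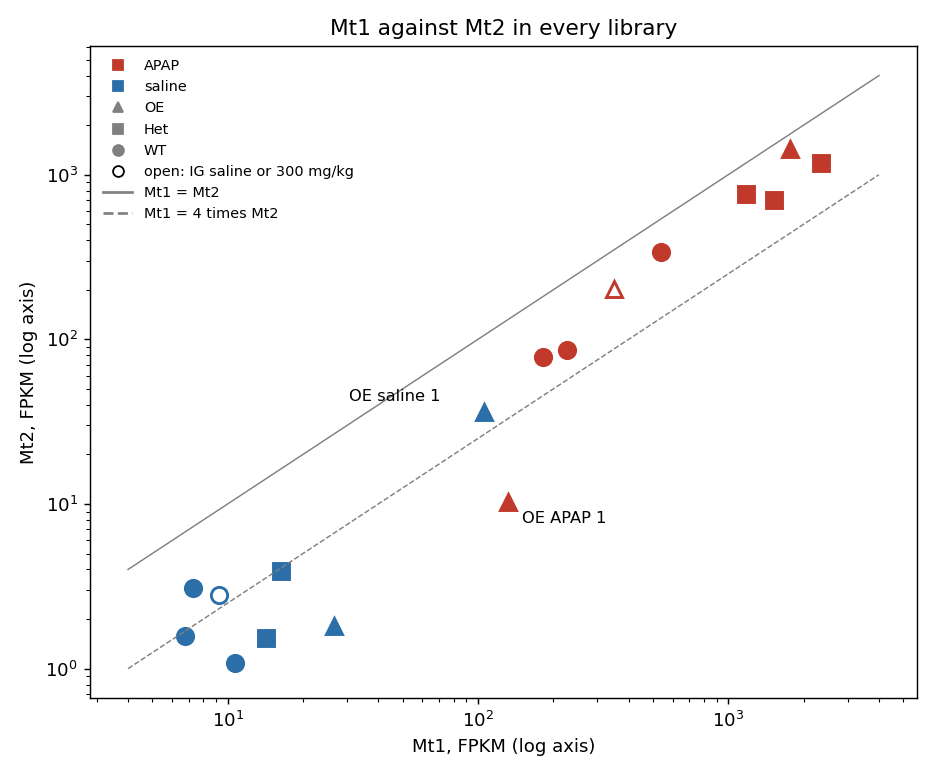
Mt2 against Mt1 in every library, in FPKM on log axes (squares, Het; triangles, OE; circles, WT; open points, the 300 mg/kg and IG libraries; lines, equal levels and a ratio of 4). APAP libraries lie toward the line of equal levels, except OE APAP 1, which sits next to OE saline 1 on the Mt1 axis and below it on the Mt2 axis.

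The other metallothioneins of the cluster, the brain form Mt3 and the squamous epithelial form Mt4, were too low to be tested. Both were listed at 0 in every saline and OE library and in WT APAP 1. Mt3 was at 0.243, 10.2 and 1.32 FPKM in Het APAP and at 0.337 and 0.608 FPKM in WT APAP 2 and 3. Mt4 was at 0.101, 11.6 and 0.920 FPKM in Het APAP and at 0.329 FPKM in WT APAP 3. Both were highest in Het APAP 2, the most deeply sequenced library and the one with the most Mt1. Their transcripts share runs of at most 27 identical bases with Mt1 or Mt2, shorter than a read. Whether reads were assigned to the wrong gene of the cluster was not tested. Outside the cluster on chromosome 8, the nearest tested genes on either side had small differences: Nup93, a nuclear pore protein, rose by 0.40 ± 0.13 (SE, log2; adjusted p = 0.0464) and Ogfod1 differed by -0.25 ± 0.12 (adjusted p = 0.165, limma, averaged response).

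Slc39a14 (ENSMUSG00000022094, chromosome 14, 70303469 to 70351425, minus strand) was the most abundant zinc importer in these livers. It stood at 56.9 and 80.6 FPKM in OE APAP, at 78.4, 75.1 and 74.5 FPKM in Het APAP, and at 52.2, 77.1 and 57.0 FPKM in WT APAP. In saline it stood at 30.7 and 47.4 FPKM in OE, at 44.8 and 40.4 FPKM in Het, and at 33.6, 34.4 and 36.1 FPKM in WT. All 8 APAP libraries lay above all 7 saline libraries, but the 300 mg/kg library, at 43.8 FPKM, lay within the saline range. The averaged difference was 0.80 ± 0.14 (SE, log2; adjusted p = 0.00266, limma). The single-genotype estimates were 0.81 ± 0.24 in OE (adjusted p = 0.932), 0.80 ± 0.24 in Het (adjusted p = 0.0335) and 0.78 ± 0.22 in WT (adjusted p = 0.0568). With 1 library left out, the OE estimate ranged between 0.44 without OE saline 1 and 1.18 without OE saline 2. In Het the call was lost in 8 of 27 alternative settings, and in WT it was gained in 9 of 26. Within lanes the step was 0.87 in Het (L008), 1.37 in OE (L008) and 0.26 in OE (L004).

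The 3 remaining genes differed little between treatments. Slc30a1 (ENSMUSG00000037434, chromosome 1, 191906767 to 191913247, plus strand) stood at 8.52 and 7.64 FPKM in OE APAP, at 7.99, 8.54 and 9.19 FPKM in Het APAP, and at 8.79, 10.4 and 9.42 FPKM in WT APAP. Saline livers had 7.62 and 9.73 FPKM in OE, 6.77 and 8.93 FPKM in Het, and 7.34, 7.53 and 7.12 FPKM in WT. All 8 APAP libraries exceeded the saline median of 7.53 FPKM, yet the averaged difference was 0.07 ± 0.10 (SE, log2; 95% confidence interval -0.14 to 0.28; adjusted p = 0.631, limma). In WT the groups did not overlap, with a difference of 0.26 ± 0.15 (adjusted p = 0.323).

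Slc30a10 (chromosome 1, 185454848 to 185468762, plus strand) sends manganese into bile in human and mouse. It stood at 2.02 and 4.05 FPKM in OE APAP, at 4.06, 5.73 and 4.04 FPKM in Het APAP, and at 4.98, 6.99 and 3.37 FPKM in WT APAP. In saline it stood at 1.51 and 2.38 FPKM in OE, at 4.46 and 4.97 FPKM in Het, and at 5.06, 7.15 and 5.54 FPKM in WT. The treatments overlapped in Het, OE and WT alike, and the averaged difference was 0.08 ± 0.18 (SE, log2; adjusted p = 0.806, limma).

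Mtf1 (chromosome 4, 124802104 to 124849800, plus strand), the sensor, stood at 4.71 and 4.75 FPKM in OE APAP, at 3.17, 5.48 and 4.41 FPKM in Het APAP, and at 3.92, 4.09 and 4.15 FPKM in WT APAP. In saline it stood at 2.51 and 6.57 FPKM in OE, at 4.20 and 4.33 FPKM in Het, and at 4.10, 3.99 and 4.92 FPKM in WT. The widest gap within a group was between the OE saline libraries, which enclosed all the others. Its averaged difference was -0.17 ± 0.13 (SE, log2; adjusted p = 0.382, limma). Over the 3 genotypes, the fitted responses of Slc30a1, Slc30a10 and Mtf1 lay between -0.37 and 0.42.

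Under APAP, Het had the highest mean level of Mt1 and Mt2, and the place of OE depended on the mean. Mt1 averaged 944 ± 1149.6 FPKM in OE (SD, n = 2), 1687 ± 605 FPKM in Het (n = 3) and 316 ± 194 FPKM in WT (n = 3), and Mt2 averaged 718 ± 1000.3, 877 ± 255 and 167 ± 148 FPKM in the same order. By geometric mean, Mt1 stood at 481 FPKM in OE, 1619 FPKM in Het and 281 FPKM in WT, and Mt2 at 121 FPKM in OE, 855 FPKM in Het and 132 FPKM in WT. Het and WT APAP did not overlap for either gene, while the OE pair spanned the WT range. How many of all genes lack overlap between these groups was not counted. In the Het minus WT difference under APAP, 0 of the 6 genes passed, against 0.054% of all genes, 0.00901% upward and 0.045% downward. At an unadjusted p under 0.05 it was 1 of the 6, Mt1, against 19.1% of all genes. The difference was 2.18 ± 0.79 for Mt1 (adjusted p = 0.179) and 1.90 ± 1.36 for Mt2 (adjusted p = 0.478), SE on the log2 scale by limma. In lane L005, which held 2 Het and 3 WT APAP livers, none of them perfused, Het exceeded WT by 2.56 for Mt1 and 2.83 for Mt2. With lane in place of perfusion, Mt1 passed, with 2.56 and an adjusted p of 0.0278, and it passed in 2 other settings.

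In the OE minus WT difference under APAP, 0 of the 6 passed, against 0.00901% of all genes, with 0.26 ± 0.91 for Mt1 (adjusted p = 0.910) and -1.24 ± 1.56 for Mt2 (adjusted p = 0.722). Neither direction was stable: without OE APAP 2 the difference was -1.09 for Mt1 and -3.55 for Mt2, without OE APAP 1 it was 2.35 and 2.33, and with lane in place of perfusion it was 2.32 and 3.04. In the OE minus Het difference under APAP, 0 of the 6 passed where 13.6% of all genes did, 8.72% upward and 4.9% downward, with -1.92 ± 0.86 for Mt1 (adjusted p = 0.170) and -3.14 ± 1.48 for Mt2 (adjusted p = 0.197, limma, SE). In both OE comparisons under APAP 0 of the 6 was under an unadjusted p of 0.05, against 17.2% of all genes in OE minus WT and 29.9% in OE minus Het. The OE minus Het comparison also rested on which OE library was used. Without OE APAP 2 it was -3.52 for Mt1 (adjusted p = 0.0216) and -5.87 for Mt2 (adjusted p = 0.0228), and both passed. Without OE APAP 1 it was -0.07 for Mt1 and 0.01 for Mt2. In lane L008, OE APAP 2 exceeded Het APAP 1 by 0.20 for Mt1 and 1.02 for Mt2.

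Under saline, OE and Het were each compared with WT. In OE minus WT, 0 of the 6 genes passed by limma, against 0.036% of all genes, 0.00901% upward and 0.027% downward, and 2 of the 6, Mt1 and Slc30a10, were under an unadjusted p of 0.05, against 5.95% of all genes. Mt1 stood at 106 and 26.5 FPKM in OE saline, above all WT saline libraries, with a difference of 2.75 ± 0.86 (SE, log2; 95% confidence interval 0.82 to 4.67; adjusted p = 0.615, limma). The higher of the pair was OE saline 1, the library with the fewest pericentral markers among the saline livers. Slc30a10 was lower in both OE saline libraries than in all Het and WT saline libraries, with an OE minus WT difference of -1.23 ± 0.28 (SE, log2; 95% confidence interval -1.84 to -0.62; adjusted p = 0.308, limma). It was the 31st of 11101 genes by unadjusted p in that comparison. In lane L008, OE saline 1 lay below the mean of the Het saline libraries by a log2 difference of -1.18. After APAP, OE APAP 1 stayed at 2.02 FPKM and OE APAP 2 reached 4.05 FPKM, within the range of the Het and WT APAP libraries. In Het minus WT under saline, 0 of the 6 passed, against 0.036% of all genes, 0.018% in each direction, and 0 was under an unadjusted p of 0.05, against 11.8% of all genes. Mt1 differed there by 0.50 ± 0.88 (adjusted p = 0.871) and Mt2 by -0.45 ± 1.51 (adjusted p = 0.940), although both Het saline libraries had more Mt1 than all 3 WT saline libraries. With only the Het and WT saline groups in the fit, Mt1 passed (adjusted p = 0.0195).

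Whether the APAP response itself differed between labels was tested directly, in comparisons that share libraries with one another and with those above. The OE minus Het difference of response was -4.17 ± 1.33 for Mt1 (adjusted p = 0.152) and -5.85 ± 2.29 for Mt2 (adjusted p = 0.230), so 0 of the 6 passed, against 0.018% of all genes, all upward, and 2 of the 6 were under an unadjusted p of 0.05, against 18.3% of all genes. It rested on which OE library was used: without OE APAP 2 it was -5.40 for Mt1 (adjusted p = 0.0365) and -7.95 for Mt2 (adjusted p = 0.0479), and without OE APAP 1 it was -1.95 (adjusted p = 0.795) and -2.07 (adjusted p = 0.870, limma). The Het minus WT difference was 1.68 ± 1.15 for Mt1 (adjusted p = 0.694) and 2.35 ± 1.97 for Mt2 (adjusted p = 0.757). The OE minus WT difference was -2.48 ± 1.28 for Mt1 (adjusted p = 0.821) and -3.50 for Mt2 (95% confidence interval -8.49 to 1.505; adjusted p = 0.833). Without OE APAP 1 it was -0.27 for Mt1 and 0.29 for Mt2, and without OE APAP 2 it was -3.72 and -5.60. In the Het minus WT and OE minus WT differences of response 0 of the 6 genes and 0% of all genes passed, and 0 of the 6 was under an unadjusted p of 0.05, against 8.25% and 5.98% of all genes (limma, SE on the log2 scale). For Slc39a14 the differences of response lay between 0.01 and 0.03, with 95% confidence intervals no wider than -0.73 to 0.75.

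Among the other zinc importers of the ZIP family, 4 of 10 tested rose and 0 fell in the averaged response, with a median difference of 0.23, against 9.79% of all genes upward and a median of -0.02. Slc39a1, a plasma membrane importer and the family's second in abundance, rose by 0.55 ± 0.11 (SE, log2; adjusted p = 0.00501), at 27.5 to 53.0 FPKM in APAP (median 47.7) and 29.1 to 34.4 FPKM in saline (median 32.7). Slc39a7, which releases zinc from the endoplasmic reticulum, rose by 0.36 ± 0.10 (adjusted p = 0.0276). Slc39a11 rose by 0.45 ± 0.13 (adjusted p = 0.0248) in the fit, although its median was 10.1 FPKM in APAP and 10.4 FPKM in saline, and Slc39a6 rose by 0.38 ± 0.12 (adjusted p = 0.0386, limma). Slc39a14 therefore had the largest fitted difference of the 11 ZIP genes tested.

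Of the other exporters of the ZnT family, 2 of 5 tested rose and 0 fell, with a median of 0.26. Over all genes, 9.79% rose and 13.3% fell. Slc30a4 rose by 0.68 ± 0.12 (SE, log2; adjusted p = 0.00203), at 3.99 to 9.52 FPKM in APAP (median 5.99) and 2.74 to 4.36 FPKM in saline (median 3.92). Slc30a7, which loads zinc into the secretory pathway, rose by 0.55 ± 0.17 (adjusted p = 0.0339). The most abundant of the family, Slc30a9 and Slc30a5, differed by -0.18 ± 0.12 (adjusted p = 0.289) and 0.26 ± 0.14 (adjusted p = 0.214, limma). Of the 6 ZIP and ZnT genes that rose besides Slc39a14, Slc30a4 alone kept its call in all 26 alternative settings. Slc39a6 lost it in 15 settings, Slc30a7 in 10, Slc39a7 in 9, Slc39a11 in 7 and Slc39a1 in 1. For each of them, leaving out OE APAP 2 was among the settings that lost it.

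**Figure D4:**
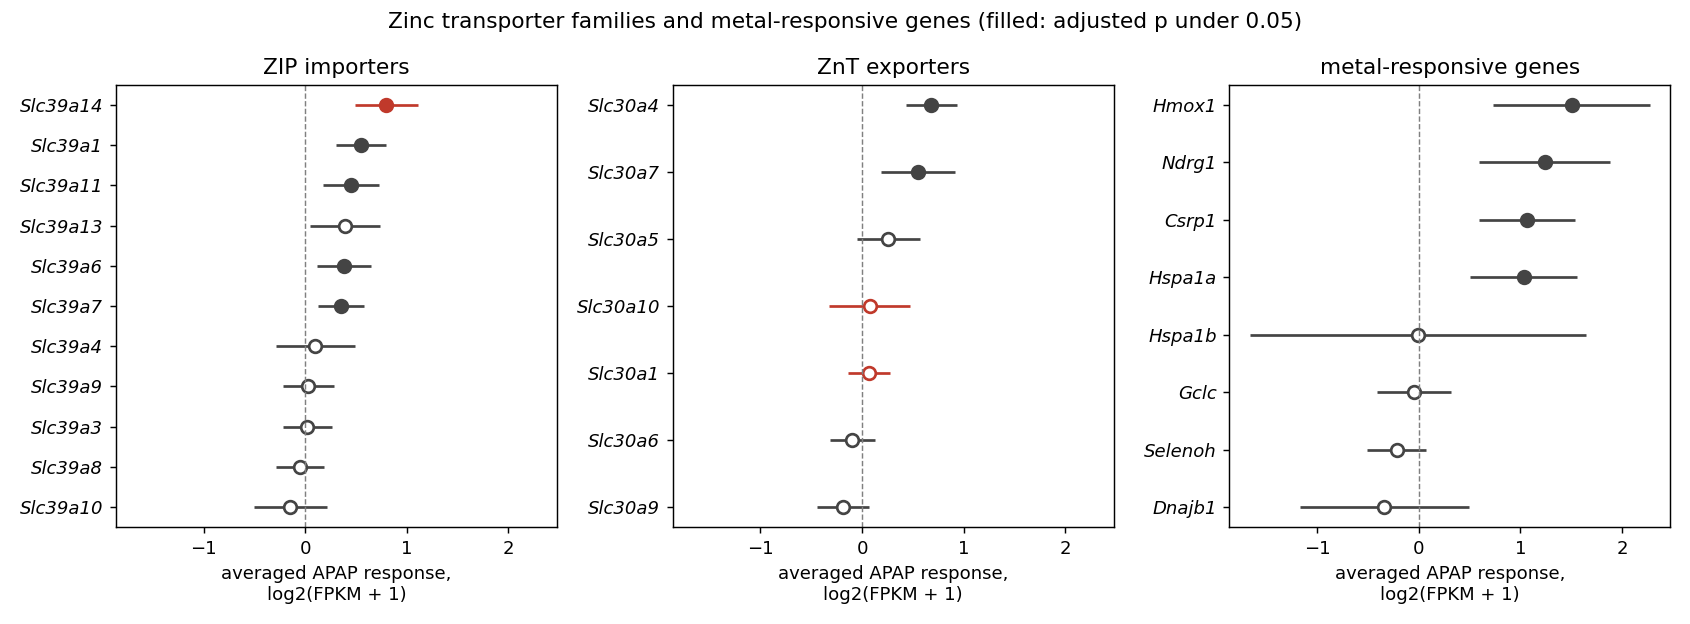
Averaged APAP response on the log2(FPKM + 1) scale, with 95% confidence intervals, for the zinc transporters and metal-responsive genes tested (red, the genes chosen by name; filled, passed). Slc39a14, Slc39a1 and Slc30a4 lead their families at 0.80, 0.55 and 0.68, and Slc30a1 and Slc30a10 lie near 0.

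Other genes known to respond to metals moved upward in part, where 9.79% of all genes rose and 13.3% fell. Of 8 tested, 4 rose and 0 fell, with a median of 0.51: Hmox1, which degrades heme, by 1.51 ± 0.35 (SE, log2; adjusted p = 0.0121), Ndrg1 by 1.24 ± 0.29 (adjusted p = 0.0123), the cytoskeletal protein Csrp1 by 1.06 ± 0.22 (adjusted p = 0.00506) and the heat shock gene Hspa1a by 1.03 ± 0.24 (adjusted p = 0.0108). Each of these 4 lost its call without OE APAP 2, where their adjusted p lay between 0.0589 and 0.115 (limma).

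Copper genes went both ways, with 2 of 11 higher, 3 lower and a median of 0.05. Over all genes, 9.79% rose and 13.3% fell, and whether these small counts differ from those shares was not tested. Ceruloplasmin (Cp), the copper carrier of plasma, rose by 1.25 ± 0.22 (adjusted p = 0.00217) and the metalloreductase Steap4 by 1.47 ± 0.34 (adjusted p = 0.0115). Ccs, which hands copper to superoxide dismutase, fell by 0.97 ± 0.14 on the log2 scale (adjusted p = 0.00107), and Atp7b, which exports copper into bile, fell by 0.50 ± 0.13 (adjusted p = 0.0173, limma, SE). Of 7 genes of manganese and divalent metal handling, 0 rose and 1 fell, the manganese superoxide dismutase Sod2, by 0.37 ± 0.12 on the log2 scale (adjusted p = 0.0438), with a median of -0.08. Sod2 lost its call in 13 of 26 alternative settings and Atp7b in 5 of 25.

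Signalling genes of the acute phase were tested as another list, where 9.79% of all genes rose and 13.3% fell. The interleukin-6 and STAT3 list also held the interleukin-1 genes Il1r1 and Il1rn. Of its 8 tested genes, 6 rose and 1 fell, with a median of 1.05. The receptor subunit Osmr rose by 1.16 ± 0.13 (adjusted p = 2.35e-04), Stat3 by 0.94 ± 0.13 (adjusted p = 7.96e-04), Il1r1 by 1.67 ± 0.26 (adjusted p = 0.00155) and Il6st by 0.65 ± 0.12 (adjusted p = 0.00362, limma, SE on the log2 scale). Of 8 glucocorticoid receptor targets 1 rose, Fkbp5, by 0.66 ± 0.15 (adjusted p = 0.00893, limma), and 0 fell, with a median of 0.16. That 1 of 8 lies near the share of all genes that rose, and Fkbp5 lost its call in 1 of 26 alternative settings.

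Cell type markers moved with the same contrast, and their part in the metallothionein response was not tested. Over all genes in the averaged response, 9.79% rose and 13.3% fell, and several of the counts below lie near those shares. Of 4 neutrophil markers tested, of 10 listed, 3 rose, and the summed level of all 10 was 6.46 to 468 FPKM in APAP and 2.02 to 9.79 FPKM in saline. It was highest in Het APAP 2, and lowest among APAP libraries in OE APAP 1, as Mt1 was. In between the orders differed. The neutrophil sum was 73.9 FPKM in OE APAP 2 and 108 FPKM in WT APAP 3, where Mt1 stood at 1757 and 538 FPKM. Mt2 was highest in OE APAP 2, at 1425 FPKM. Of 12 monocyte and macrophage markers tested, of 14 listed, 7 rose, with sums of 77.1 to 521 FPKM in APAP and 58.6 to 148 FPKM in saline. Of 7 pericentral markers tested, of 8 listed, 6 fell, with sums of 167 to 1427 FPKM in APAP and 1273 to 5016 FPKM in saline. Of 7 general hepatocyte markers tested, of 9 listed, 2 fell and 0 rose, with sums of 6942 to 12103 FPKM in APAP and 11088 to 15390.3 FPKM in saline, so the libraries were those of liver. Kupffer cell markers gave 0 calls among 10, with sums of 110 to 320 FPKM in APAP and 134 to 284 FPKM in saline. Of 8 sinusoidal endothelial markers 1 fell, of 8 stellate cell markers 2 rose and 3 fell, of 2 cholangiocyte markers tested 1 rose, and of 5 erythroid markers tested 1 fell. No marker analysed here was at 0 in all libraries.

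The genes whose profiles over the 17 libraries lay nearest were sought by the root mean square difference of centred log2(FPKM + 1) values, which describes likeness and tests nothing. Nearest to Mt1 were Mt2 at 0.90, the siderophore-binding protein Lcn2 at 1.13 and the neutrophil gene S100a9 at 1.23. Nearest to Mt2 were Lcn2 at 0.78, Mt1 at 0.90 and the acute phase protein Saa2 at 1.17, against an SD of 3.55 for Mt2 itself. Lcn2 spanned 8.57 to 2034 FPKM in APAP (median 762) and 2.50 to 19.1 FPKM in saline (median 4.53). Nearest to Slc39a14, whose SD was 0.47, were Raph1 at 0.16, Tacc2 at 0.18 and Skil at 0.21. Reads of Saa2 can be shared with its close copy Saa1, so its level is uncertain.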

How the data were processed

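Libraries were strand-specific, made from total liver RNA, and read as pairs, per the labels' protocols. The submitters' processing notes name bcl2fastq 2.17.1.14, TopHat2 2.0.9, Cufflinks 2.2.1, Cuffdiff and the build GRCm38.p5, but no annotation. The authors' deposited values were taken to be FPKM: no header names the unit, which was inferred from Cufflinks and from the values. Of 46073 gene IDs, 45139 had a symbol. Coordinates are those of GENCODE (GRCm38).

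Genes listed at 0 throughout a genotype and drug block but at 10 FPKM or more elsewhere (89), and 7 neighbours within 100 kb, were left out as failed estimates; 0 of the 6 genes was among them. A mean of 1 FPKM or more was required (11101 genes), and 0 of the 6 fell below. limma 3.58.1 (statmod 1.5.0, R 4.3.3) fitted log2(FPKM + 1) on 8 label groups and perfusion, with trended, robust variances, 8 residual degrees of freedom and a false discovery rate of 0.05. On that scale the unadjusted change of low genes is understated. The perfusion term also moved the fitted changes, upward for Mt1 and Mt2 in Het and WT. The averaged response weights the APAP minus saline differences of the 3 genotypes equally. In all, 12 comparisons were made, and nothing pairs animals across groups. Named besides the 6 genes were up to 4 called genes of smallest p per metal or regulator list, the 3 most abundant ZIP and ZnT genes, and the 3 nearest profiles; Nampt, Nup93 and Ogfod1 were added after their values were seen. Alternatives were pseudocounts of 0.1 and 0.5, no filter or a mean of 5 FPKM, no perfusion term, lane in place of perfusion, quantile normalization, array weights, a fit of the compared groups alone, rare labels pooled, failed zeros kept, and each library left out, with OE saline 2 and OE APAP 1 also left out together. The genes and lists were chosen with earlier results of these data known. Summed FPKM was 466883 to 916006 per library, and only relative depth could be estimated. Python 3 with pandas and matplotlib was used for the rest.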

Additional observations from a re-analysis of the deposited data

Results flagged for a closer look

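Signals in libraries and genes outside the comparisons were set against the saline libraries. The single OE liver given 300 mg/kg had 348 FPKM of Mt1, above the 6.75 to 106 FPKM of the 7 saline libraries, and 201 FPKM of Mt2, above their 1.09 to 36.1 FPKM. The single WT liver given saline by IG had 10.01 FPKM of Slc30a1, above the 6.77 to 9.73 FPKM of the other saline libraries. Mt3 reached 10.2 FPKM and Mt4 11.6 FPKM in Het APAP 2, where all saline libraries were listed at 0. No group had the 4 libraries that a test for an outlying sample needs.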

How the results depend on the processing

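In the averaged response the same 3 genes passed in all 26 alternatives, with Mt1 at 4.47 to 5.90, Mt2 at 5.21 to 7.68 and Slc39a14 at 0.62 to 1.02 (log2). In WT, where 2 passed, 1 passed with no filter on low values and 0 with only the groups compared, and 1 to 3 passed when a library was left out. In Het minus WT under APAP, 1 passed (Mt1) with lane in place of perfusion, with array weights, and without OE saline 2 and OE APAP 1 together. In Het minus WT under saline, 1 passed with only the groups compared. When 1 library was left out, 0 to 2 passed in OE minus Het under APAP and in the OE minus Het difference of response, the 2 without OE APAP 2. The log2 ratio of Mt1 to Mt2 differed by -1.17 with a pseudocount of 0.1 and by -1.14 to -0.60 with 1 library left out. A lone library left in a group was assumed to vary like the others. The causes were not tested.

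The following signs turned, in results that did not pass with the main settings. In the averaged response, Mtf1 was 0.027 without the perfusion term and 0.049 without OE saline 2 and OE APAP 1 together, and -0.32 to 0.049 with 1 library left out; Slc30a10 was -0.16 to 0.23. In OE minus WT under APAP, Mt1 was -1.09 with only the groups compared and -1.09 to 2.35 with 1 library left out; Mt2 was 3.04 with lane and 3.32 without the pair, and -3.55 to 2.33. In OE minus Het under APAP, Mt1 was 0.34 without the pair; Mt2 was 0.21 with lane, 0.67 without the pair and -5.87 to 0.0095 with 1 left out. In Het minus WT under saline, Mt2 was 0.34 without the perfusion term, 0.28 with array weights, 0.12 with only the groups compared, 0.30 without the pair and -1.003 to 0.12. In the OE minus WT difference of response, Mt2 was -5.60 to 0.29. Of 26 other genes named by rule that passed, 12 passed throughout and 14 lost the call somewhere, all 14 of them without OE APAP 2.

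Lane could not be fitted for the averaged and WT responses and comparisons with WT saline, and no gene of the 6 was below the filter. No paired analysis was possible because replicate numbers are only the order of deposit. The few Mt2 fragments in saline limit its precision there.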
